A study of Mus musculus with 18 samples.

Results

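Cytokine receptor transcripts were followed through 3 states of mouse B cells, with and without endophilin A2. The 10 genes were a fixed list of receptor chains, Il2rg, Il4ra, Il21r, Il9r, Il2ra, Il7r, Il10ra, Ifngr1, Il6ra and Il1r2, each matched by its identifier to a symbol in the GRCm38 annotation. The list was chosen with earlier results of these data known, so the shares of members called are descriptions only. They were 10 of the 51912 genes in the deposited table, and all 10 passed the filter on low counts in all 9 comparisons. RNA came from C57BL/6 littermates that were WT or Sh3gl1-/-, the latter lacking the gene for the membrane trafficking protein endophilin A2 in every tissue. B cells were sorted as transitional cells or as follicular cells and lysed ex vivo, untreated, or follicular cells were cultured with CD40L, for 14 hours by the sample labels. Each of the 6 groups held 3 mice, giving 18 libraries. Groups of a genotype may share mice, since a legend of the study counts 3 mice per genotype and the labels do not say. The age of the mice is not given in the sources used here. The knockout is constitutive, so the B cells developed without endophilin A2 in a host whose other cells also lacked it, and no culture without CD40L was analysed here.

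Most of these receptors signal through Janus kinases bound to their cytoplasmic tails and through STAT factors that the kinases phosphorylate. The product of Il2rg, the common gamma chain, is shared by receptors that include those for IL-2, IL-4, IL-7, IL-9 and IL-21. Each of these adds a chain, called private here, that helps set which cytokine is bound. A chain called private can also serve another receptor. IL-4 and IL-21 from helper T cells act on B cells during the germinal centre reaction, the receptors for IL-10 and interferon gamma are pairs of class II chains, the IL-6 receptor signals through gp130, and the product of Il1r2 binds IL-1 without transmitting a signal. CD40L is the T cell ligand that engages CD40 on B cells.

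The sequences just before the starts of Il2ra and Il9r are shown because these genes changed between all 3 states. Both windows were taken from RefSeq on GRCm38.p6 and written 5′ to 3′ on the strand of the gene, in lower case. The Il2ra window is chr2:11642542-11642791 (plus strand) and the Il9r window chr11:32200280-32200529 (minus strand). Neither window overlapped an annotated exon of its gene.
Il2ra: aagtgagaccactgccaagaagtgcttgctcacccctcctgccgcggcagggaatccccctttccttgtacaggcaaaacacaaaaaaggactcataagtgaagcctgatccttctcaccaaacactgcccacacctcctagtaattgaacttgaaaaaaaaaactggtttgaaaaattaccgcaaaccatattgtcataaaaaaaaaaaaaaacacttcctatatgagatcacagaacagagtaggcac
Il9r: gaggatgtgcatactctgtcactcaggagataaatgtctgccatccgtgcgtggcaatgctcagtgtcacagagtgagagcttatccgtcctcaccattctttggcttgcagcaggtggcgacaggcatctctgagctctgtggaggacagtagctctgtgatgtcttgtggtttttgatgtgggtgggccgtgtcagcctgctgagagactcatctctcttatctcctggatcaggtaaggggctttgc
The G and C content was 42.4% in the Il2ra window and 52.8% in the Il9r window. The 250 bases before the start were searched on both strands for the STAT-type motif TTCNNNGAA, for the same motif with 4 free bases between its arms and for the 10-base consensus of the NF-kB motif, in the 9 members that the RefSeq table holds. The first was found in 2 of 9 members and in 7.02% of 32851 promoters. The form with 4 free bases was in 0 of 9 members and in 5.85% of all promoters, and the NF-kB motif in 0 of 9 and in 0.14%. The matches are shown with their flanks, the motif in capitals, at chr1:40085972-40086000 (plus strand, 111 bases before the Il1r2 start) and chr15:9530000-9530028 (minus strand, 142 bases before the Il7r start).
Il1r2: cgggtgctttTTCAAGGAActtccgacta
Il7r: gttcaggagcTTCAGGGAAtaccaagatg
The RefSeq starts of these genes lie inside the annotated gene, and 108 and 86 of the 250 bases searched were annotated exon. The end of the retrieved Il7r sequence, past its start, was found in no annotated Il7r transcript in either direction. The Il7r start was thus not borne out by this check, which all other members searched passed. These are matches of letters and not sites of binding. Il4ra (chr7:125552120-125579474) and Il21r (chr7:125603429-125633570) are neighbours on the plus strand, 23954 bases apart with 0 annotated genes between them. The other members lie on 8 further chromosomes, among them Il2rg at chrX:101264378-101268255, Il10ra at chr9:45253837-45269149, Il6ra at chr3:89864059-89913196 and Ifngr1 at chr10:19591949-19610229.

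Sh3gl1 had 377 to 929 counts in the WT libraries and 1 to 22 in the Sh3gl1-/- libraries, with no overlap in any state. Total counts ranged from 12404665 to 18366011 per library, and 3 counts, used as a floor for counting error only, corresponded to between 0.176 and 0.239 CPM, the counts scaled to library size. All 8 B cell markers were above 1 CPM in every library, and Cd93, the marker of the transitional gate, was lower in WT follicular than in WT transitional cells (log2 fold change -2.33 ± 0.20 SE). RNA of other cells differed between groups. The summed level of 12 T cell markers was 201 to 246 CPM in WT and 312 to 378 CPM in Sh3gl1-/- follicular cells, and 78.5 to 123 CPM after CD40L, where all 12 were called lower in both genotypes. The 10 neutrophil markers summed to 56.8 to 102 CPM in WT and 123 to 587 CPM in Sh3gl1-/- transitional cells, to 73.1 to 183 and 185 to 816 CPM in follicular cells, and to 9.52 to 40.3 and 53.3 to 198 CPM after CD40L. Ly6g among them was at 0 in all WT follicular and WT CD40L libraries. Of 9 monocyte or macrophage markers, 9 were lower in follicular than in transitional WT cells, and 8 NK or ILC markers stayed at or below 50.6 CPM in sum. The 6 red cell genes were all higher in Sh3gl1-/- than in WT transitional cells. The 6 plasma cell genes summed to 511 to 735 CPM in WT and 1170 to 4640 CPM in Sh3gl1-/- transitional cells, where 1 of them, Jchain, was called higher. Markers of dendritic cells summed to 12.3 to 40.1 CPM, and those of B-1 or marginal zone B cells to 430 to 492 CPM in WT and 284 to 370 CPM in Sh3gl1-/- transitional cells. The part of these cells in the results was not tested. In RNA from pooled sorted cells, fewer cells of a type and less RNA per cell cannot be told apart.

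Per length of transcript, the common gamma chain stood far above the private chains. In WT follicular cells Il2rg was at 1560 ± 38.8 TPM (SD, n = 3), against 92.7 ± 11.2 TPM for Ifngr1, 92.5 ± 14.4 for Il21r, 30.2 ± 5.88 for Il10ra, 26.3 ± 2.85 for Il4ra and 16.1 ± 1.35 for Il9r. Il6ra at 3.76 ± 0.761 TPM, Il7r at 3.70 ± 1.01, Il2ra at 2.12 ± 0.562 and Il1r2 at 0.877 ± 0.586 were the lowest. After CD40L the WT order changed to Il2rg at 1330 ± 30.2 TPM, Il21r at 120 ± 29.7, Ifngr1 at 93.6 ± 17.4 and Il9r at 86.4 ± 8.58, followed by Il1r2 at 18.5 ± 1.97, Il2ra at 16.1 ± 2.08, Il4ra at 15.9 ± 4.13 and Il10ra at 12 ± 1.66. Il2ra and Il1r2 after CD40L were thus near the level that Il9r had in ex vivo follicular cells.

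The chains that pair with these receptors were not all present at like levels. Il10rb, the second chain of the IL-10 receptor, was at 80.7 ± 3.32 TPM and Ifngr2, the second chain of the interferon gamma receptor, at 27.3 ± 5.21 TPM in WT follicular cells. Il6st, which encodes gp130, was at 1.05 ± 0.495 TPM, and Il2rb, the signalling beta chain for IL-2, at 1.9 ± 0.454 TPM. Il13ra1, which with Il4ra forms the receptor that also binds IL-13, was at 0.31 ± 0.219 TPM. Il1r1, the signalling IL-1 receptor, was listed at 0 in all WT follicular and CD40L libraries and had at most 7 counts in any of the 18, while Il1rap, its accessory chain, was at 4.78 ± 0.849 TPM.

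**Figure D1:**
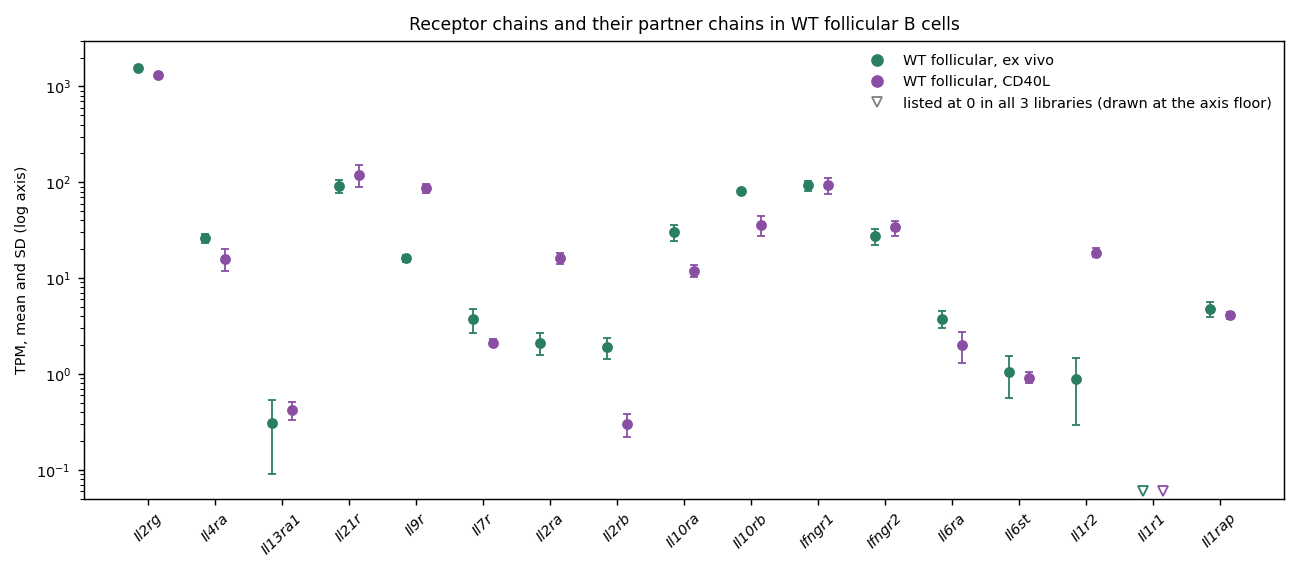
Mean TPM (log axis) with SD of 3 libraries for each receptor chain and its partner chains in WT follicular B cells ex vivo and after CD40L. Il2rg lies at 1560 and 1330 TPM, Il9r rises from 16.1 to 86.4 TPM and Il2rb falls from 1.9 to 0.3 TPM, and Il1r1 has no counts.

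Il2rg moved little. It was at 1610, 1460 and 1310 CPM in WT transitional cells, at 1680, 1670 and 1680 in WT follicular cells and at 1770, 1760 and 1780 in WT cells after CD40L. The Sh3gl1-/- libraries were at 1680, 1560 and 1660, then 1770, 1710 and 1830, then 1660, 1590 and 1720 CPM. The highest group mean was 1.21 times the lowest, and of the neighbours in the order of means only WT CD40L and WT follicular cells did not overlap.

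Il4ra, the binding chain for IL-4, was highest in follicular cells ex vivo. The WT libraries were at 50.7, 93.4 and 71.8 CPM in transitional cells, 85.5, 99.4 and 86.5 in follicular cells and 55.0, 71.0 and 55.6 after CD40L. The Sh3gl1-/- libraries were at 60.3, 73.4 and 76.1, then 84.5, 85.7 and 87.1, then 51.9, 44.0 and 75.9 CPM. All 5 pairs of neighbouring groups overlapped. Its chromosomal neighbour Il21r, the private chain for IL-21, was highest after CD40L instead. WT cells had 145, 195 and 153 CPM as transitional cells, 179, 204 and 156 as follicular cells and 202, 313 and 277 after CD40L. Sh3gl1-/- cells had 182, 181 and 176, then 211, 227 and 201, then 237, 211 and 327 CPM, and the spread after CD40L was the widest in both genotypes.

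Il9r, the private chain for IL-9, rose at each step. WT libraries had 14.8, 17.2 and 10.8 CPM in transitional cells, 51.5, 50.6 and 44.6 in follicular cells and 267, 250 and 251 after CD40L. Sh3gl1-/- libraries had 28.9, 17.1 and 27.9, then 105, 75.2 and 94.0, then 255, 259 and 350 CPM. The 3 states did not overlap within either genotype, the genotypes did not overlap in follicular cells, and they overlapped in transitional cells and after CD40L. The highest group mean was 20.2 times the lowest.

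Il2ra, the chain that raises the affinity of the IL-2 receptor and is better known as CD25, fell and then rose. WT libraries had 23.5, 24.9 and 31.6 CPM in transitional cells, 3.62, 5.54 and 5.57 in follicular cells and 46.8, 58.1 and 48.6 after CD40L. Sh3gl1-/- libraries had 10.7, 15.1 and 8.91, then 7.65, 7.16 and 4.07, then 49.2, 31.4 and 36.7 CPM. Every Sh3gl1-/- transitional library lay below every WT one, and the genotypes overlapped in follicular cells and after CD40L. Il7r, the private chain for IL-7 that early B lineage cells and T cells use, stayed low. It was between 4.29 and 12.6 CPM in the 9 WT libraries and between 8.36 and 17.5 CPM in the 9 Sh3gl1-/- libraries, and all neighbouring groups overlapped.

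Among the class II chains, Il10ra, the binding chain for IL-10, had its lower values in Sh3gl1-/- cells. WT libraries had 79.3, 105 and 85.7 CPM in transitional cells, 90.9, 95.2 and 67.6 in follicular cells and 42.2, 40.7 and 33.4 after CD40L. Sh3gl1-/- libraries had 60.6, 67.5 and 61.0, then 53.6, 55.1 and 51.8, then 27.5, 24.7 and 18.5 CPM. The genotypes did not overlap in any of the 3 states. Ifngr1, the binding chain for interferon gamma, was the flattest of the 10, at 134 to 197 CPM over all 18 libraries, with a highest group mean 1.18 times the lowest and all neighbours overlapping.

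Il6ra, the binding chain for IL-6, was low and highest in WT follicular cells. WT libraries had 4.15, 4.20 and 6.94 CPM in transitional cells, 13.1, 14.7 and 9.18 in follicular cells and 8.60, 9.58 and 4.97 after CD40L. Sh3gl1-/- libraries had 6.75, 4.73 and 5.10, then 7.72, 6.97 and 4.79, then 5.97, 7.24 and 4.24 CPM, so WT follicular cells lay above all of them. Il1r2, the decoy receptor for IL-1, was near the floor ex vivo, between 0.144 and 2.52 CPM in the 12 libraries. After CD40L it was at 24.9, 19.8 and 22.9 CPM in WT and 11.5, 8.28 and 12.4 CPM in Sh3gl1-/- cells, and these groups did not overlap with each other or with any ex vivo group.

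**Figure D2:**
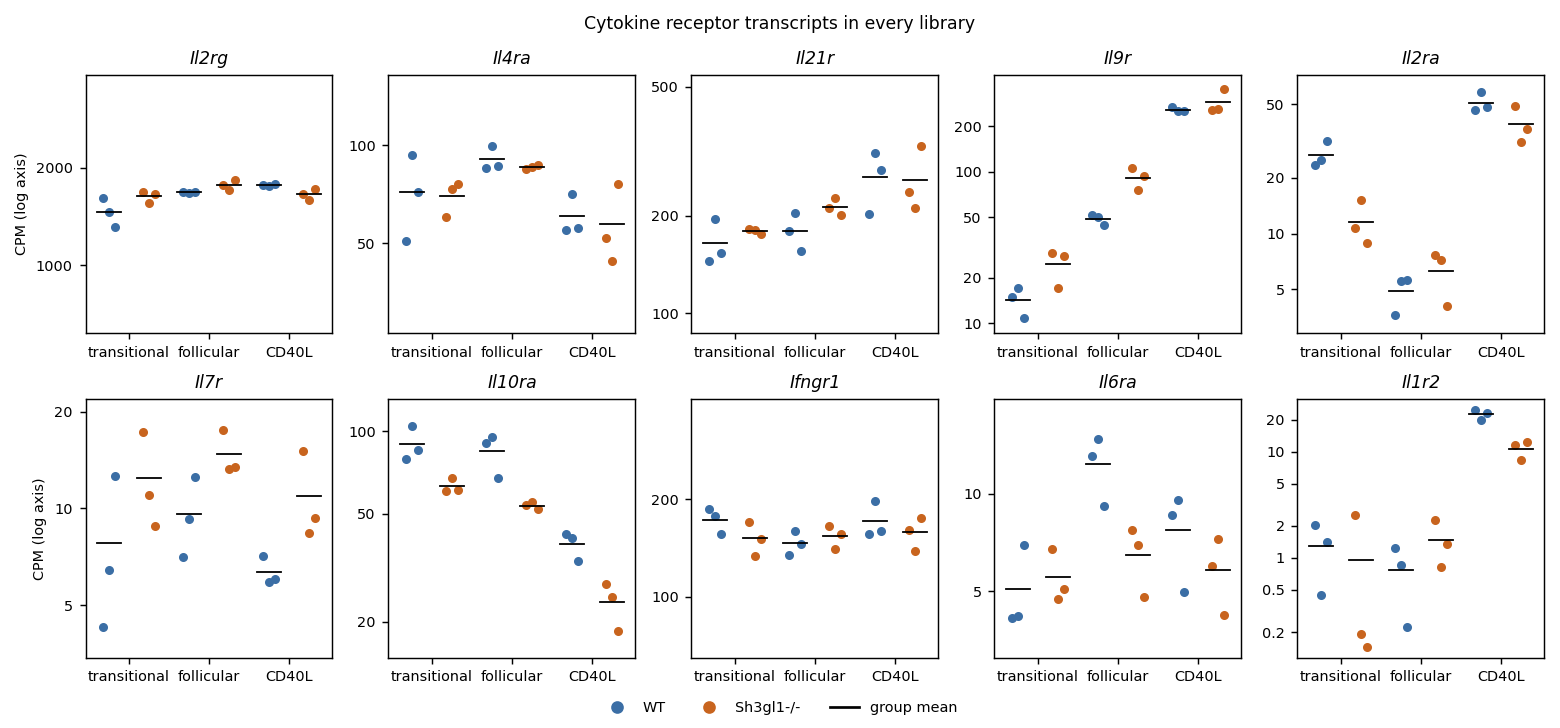
CPM on log axes for each of the 10 receptor transcripts in every library, with group means as lines, WT in blue and Sh3gl1-/- in orange. Il9r climbs from 10.8 to 17.2 CPM in WT transitional cells to 250 to 267 CPM after CD40L, Il2ra dips in follicular cells, Il1r2 rises with CD40L, and the Il10ra points of the genotypes do not overlap in any state.

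The step from transitional to follicular cells was compared within each genotype. In WT cells Il9r rose 3.45-fold (log2 fold change 1.79 ± 0.20 SE, edgeR adjusted p = 4.4e-05), and Il6ra rose 2.44-fold (1.29 ± 0.27, edgeR adjusted p = 0.0038). Il2ra fell 5.39-fold (-2.43 ± 0.27, edgeR adjusted p = 3.2e-05). The 7 genes of pro-B and pre-B cells, which also carry CD25, summed to 500 to 564 CPM in transitional and 189 to 248 CPM in follicular WT cells. Only 1 of the 7 was above 1 CPM in every library of either group, and nearly all of the transitional sum was Vpreb3. Vpreb3 was lower (-1.27 ± 0.15, edgeR adjusted p = 5.4e-05) and Rag1 was at 0 in all WT follicular libraries. The part of pro-B and pre-B cells in the fall was not tested. Il2rg rose by only 0.21 ± 0.07 on the log2 scale (edgeR adjusted p = 0.039), a call that was lost with TPM, with RLE size factors, with all 18 libraries in 1 fit and without any 1 of 7 of the 12 libraries: WT transitional replicates 2 and 3, WT follicular replicates 1, 2 and 3, Sh3gl1-/- transitional replicate 1 and Sh3gl1-/- follicular replicate 1 (adjusted p up to 0.15). Thus 3 of 10 members were higher, where 11.7% of all genes tested were, and 1 of 10 was lower, where 14.2% were. Same-numbered libraries of a genotype deviated together here, and with the number as a block within genotype Il4ra was also called higher (0.38 ± 0.12, edgeR adjusted p = 0.03; 0.34 ± 0.16 and 0.14 without the block), as it was without WT transitional replicate 2 (0.57 ± 0.15, edgeR adjusted p = 0.017).

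In Sh3gl1-/- cells Il9r rose 3.70-fold (1.89 ± 0.20, edgeR adjusted p = 3.8e-05), close to its change in WT cells. Il2ra fell 1.84-fold (-0.88 ± 0.26, edgeR adjusted p = 0.045), and this call was lost without any 1 of 10 of the 12 libraries, all but WT follicular replicate 1 and Sh3gl1-/- transitional replicate 3 (adjusted p up to 0.21). So 1 of 10 members was higher and 1 lower, against 3.70% and 6.71% of all genes. Il6ra had a log2 fold change of 0.23 ± 0.27 (edgeR adjusted p = 0.69).

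The difference between these changes was tested in 1 model. It was 1.55 ± 0.37 on the log2 scale for Il2ra, whose fall was smaller in Sh3gl1-/- cells (unadjusted p = 9.1e-04, edgeR adjusted p = 0.12). With the number as a block within genotype, the difference was 1.54 ± 0.27 and was called (edgeR adjusted p = 0.031), and DESeq2 also called it. For Il6ra it was -1.06 ± 0.39 (edgeR adjusted p = 0.25) and for Il9r 0.10 ± 0.28 (edgeR adjusted p = 0.91). edgeR called 0 of 10 members and 0.0686% of all genes. Among all 14580 genes, 1992 had an unadjusted p under 0.05 and DESeq2 called 365.

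CD40L culture was compared with follicular cells ex vivo, and the same ex vivo libraries stand in the preceding comparison. In WT cells Il1r2 rose 27.7-fold (4.79 ± 0.42, edgeR adjusted p = 7.0e-07), Il2ra 10.2-fold (3.35 ± 0.25, edgeR adjusted p = 1.7e-07) and Il9r 5.12-fold (2.36 ± 0.15, edgeR adjusted p = 4.5e-08). Il21r rose 1.44-fold (0.52 ± 0.18, edgeR adjusted p = 0.024). Il10ra fell 2.23-fold (-1.16 ± 0.16, edgeR adjusted p = 4.5e-05) and Il4ra 1.53-fold (-0.61 ± 0.17, edgeR adjusted p = 0.0088). Hence 4 of 10 members were higher and 2 lower, against 23.6% and 25.7% of all genes tested. Neutrophils also carry Il1r2 and T cells can carry Il2ra. Over the same step 9 of 9 neutrophil markers tested and 12 of 12 T cell markers were lower, and the part of these cells in the changes was not tested.

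The Il21r call was lost without WT follicular replicate 1 or 3 or without WT CD40L replicate 2 or 3 (edgeR adjusted p 0.054 to 0.11) and with TPM (limma adjusted p = 0.17), and the Il4ra call without WT follicular replicate 2 (0.052). Il6ra, at -0.71 ± 0.29, was short of the threshold (edgeR adjusted p = 0.059) and was called with the block within genotype (-0.73 ± 0.21, edgeR adjusted p = 0.015) and without WT follicular replicate 3 or WT CD40L replicate 2. Il7r was at -0.63 ± 0.26 (edgeR adjusted p = 0.057) and was called without WT follicular replicate 1 (0.028) or Sh3gl1-/- CD40L replicate 1 (0.04). T cell markers were lower over the same step, and the part of T cell RNA in the Il7r estimate was not tested. Ifngr1 was at 0.19 ± 0.12 (0.22). Il2rg was at 0.05 ± 0.06 (edgeR adjusted p = 0.58) and had the opposite sign with TPM (-0.24 ± 0.06, limma adjusted p = 0.0091), a scale that moved the median of all genes by -0.10.

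In Sh3gl1-/- cells Il1r2 rose 7.2-fold (2.85 ± 0.39, edgeR adjusted p = 5.1e-05), Il2ra 6.10-fold (2.61 ± 0.24, edgeR adjusted p = 1.6e-06) and Il9r 3.10-fold (1.63 ± 0.15, edgeR adjusted p = 1.2e-06). Il10ra fell 2.31-fold (-1.21 ± 0.16, edgeR adjusted p = 5.1e-05) and Il4ra 1.52-fold (-0.60 ± 0.17, edgeR adjusted p = 0.012). The Il4ra call was lost without Sh3gl1-/- CD40L replicate 1 (edgeR adjusted p = 0.057) or 2 (0.05 after rounding). With 3 of 10 members higher and 2 lower, the backgrounds were 20.6% and 21.8% of all genes. Il21r had a log2 fold change of 0.26 ± 0.18 (edgeR adjusted p = 0.27). Il7r was at -0.46 ± 0.25 (edgeR adjusted p = 0.16) and was called without Sh3gl1-/- CD40L replicate 1 (-0.74 ± 0.26, 0.042).

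The estimates of the 3 large rises were smaller in Sh3gl1-/- cells, but no difference between the genotypes passed the threshold. The difference of the responses was -1.94 ± 0.56 for Il1r2, -0.72 ± 0.21 for Il9r and -0.74 ± 0.33 for Il2ra, with unadjusted p of 0.004, 0.0034 and 0.044 and edgeR adjusted p of 0.47, 0.47 and 0.56. For Il10ra it was -0.05 ± 0.23 and for Il4ra 0.01 ± 0.24 (edgeR adjusted p = 0.98 and 1). edgeR called 0 of 10 members and 0% of the 14460 genes tested, of which 1278 had an unadjusted p under 0.05 and DESeq2 called 37. DESeq2 called Il1r2 among them.

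**Figure D3:**
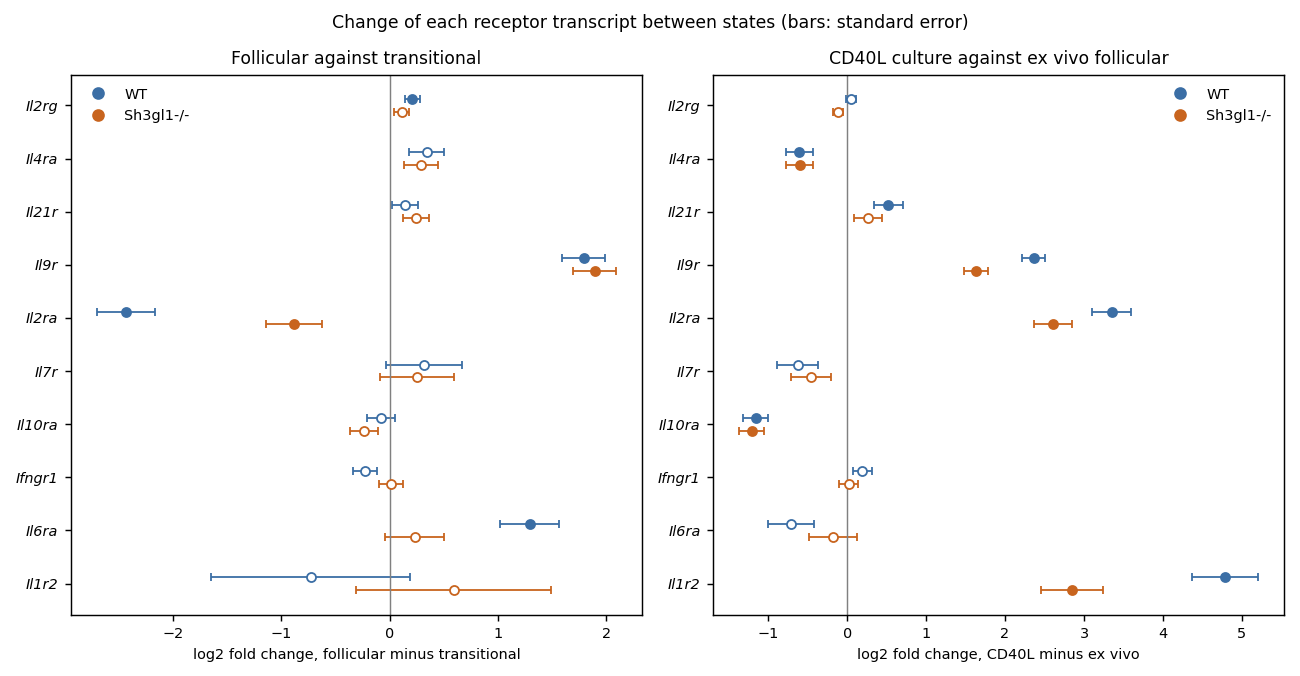
Log2 fold changes with standard errors for the 10 receptors, follicular minus transitional (left) and CD40L minus ex vivo follicular (right), WT in blue and Sh3gl1-/- in orange, filled where the adjusted p was under 0.05. Il9r lies to the right in both panels, Il2ra changes side between them, and Il10ra and Il4ra lie to the left after CD40L in both genotypes.

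Sh3gl1-/- and WT cells were then compared within each state. In transitional cells Il2ra was 2.30-fold lower (-1.20 ± 0.21, edgeR adjusted p = 0.025) and Il10ra 1.43-fold lower (-0.51 ± 0.11, edgeR adjusted p = 0.041). These were 2 of 10 members lower and 0 higher, against 2.48% and 1.26% of all genes. Il9r was at 0.79 ± 0.23 (edgeR adjusted p = 0.093) and was higher in 2 of 3 Sh3gl1-/- libraries than in any WT library. Without Sh3gl1-/- replicate 2 it was called (1 ± 0.20, edgeR adjusted p = 0.035). The Il2ra call was lost without WT replicate 2 or 3 or Sh3gl1-/- replicate 1 or 3 (edgeR adjusted p 0.052 to 0.1), and the Il10ra call without WT replicate 2 or 3 or any Sh3gl1-/- replicate (0.058 to 0.17). With the replicate block both calls were lost, and the Il10ra call also with TPM and with all 18 libraries in 1 fit. Beside the Il2ra difference, the summed level of the 7 genes of pro-B and pre-B cells was 500 to 564 CPM in WT and 286 to 475 CPM in Sh3gl1-/- transitional cells, and nearly all of it in WT was Vpreb3 (496 to 561 CPM). Their part in the result was not tested.

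In follicular cells Il9r was 1.87-fold higher in Sh3gl1-/- cells (0.90 ± 0.13, edgeR adjusted p = 0.01) and Il10ra 1.58-fold lower (-0.66 ± 0.13, edgeR adjusted p = 0.045). These 2 of 10 members stand against 0.845% of all genes in either direction. Without Sh3gl1-/- replicate 1, the library with the most neutrophil RNA, Il9r was at 0.79 ± 0.13 (edgeR adjusted p = 0.056) and Il10ra at -0.66 ± 0.16 (0.17). The Il10ra call was also lost without WT replicate 1 or 2 or Sh3gl1-/- replicate 2 or 3 (0.077 to 0.16), with all 18 libraries in 1 fit and with TPM, which also ended the Il9r call (limma adjusted p = 0.058). Il6ra was at -0.93 ± 0.25 (edgeR adjusted p = 0.15), with no overlap between the genotypes, and was called by DESeq2 (adjusted p = 0.029). Il7r, at 0.62 ± 0.23 (edgeR adjusted p = 0.31), also did not overlap, and Cd3e, a T cell marker, was higher in the same libraries (8.62 to 12.8 CPM in WT and 24.6 to 30.9 CPM in Sh3gl1-/-, 1.37 ± 0.17, edgeR adjusted p = 0.004). The part of T cell RNA in the levels of Il7r and Il9r was not tested.

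After CD40L edgeR called 0 of 10 members and 0.0227% of all genes, which is 3 genes. At an unadjusted p under 0.05 there were 932 genes, and DESeq2 called 79, with Il1r2 among them. Il1r2 was 2.06-fold lower in Sh3gl1-/- cells (-1.04 ± 0.21, unadjusted p = 6.0e-04, edgeR adjusted p = 0.27) and Il10ra 1.61-fold lower (-0.69 ± 0.19, edgeR adjusted p = 0.48), both lower in 3 of 3 libraries than in any WT library. Neutrophil markers summed to 53.3 to 198 CPM in these Sh3gl1-/- libraries and 9.52 to 40.3 CPM in WT, and their part in the Il1r2 level was not tested. Il7r was at 0.82 ± 0.27 (edgeR adjusted p = 0.61), Il9r at 0.20 ± 0.15 (0.78) and Il2ra at -0.36 ± 0.18 (0.72). Il4ra was within 0.08 of 0 on the log2 scale in all 3 comparisons of genotypes, with standard errors of 0.19, 0.09 and 0.20.

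**Figure D4:**
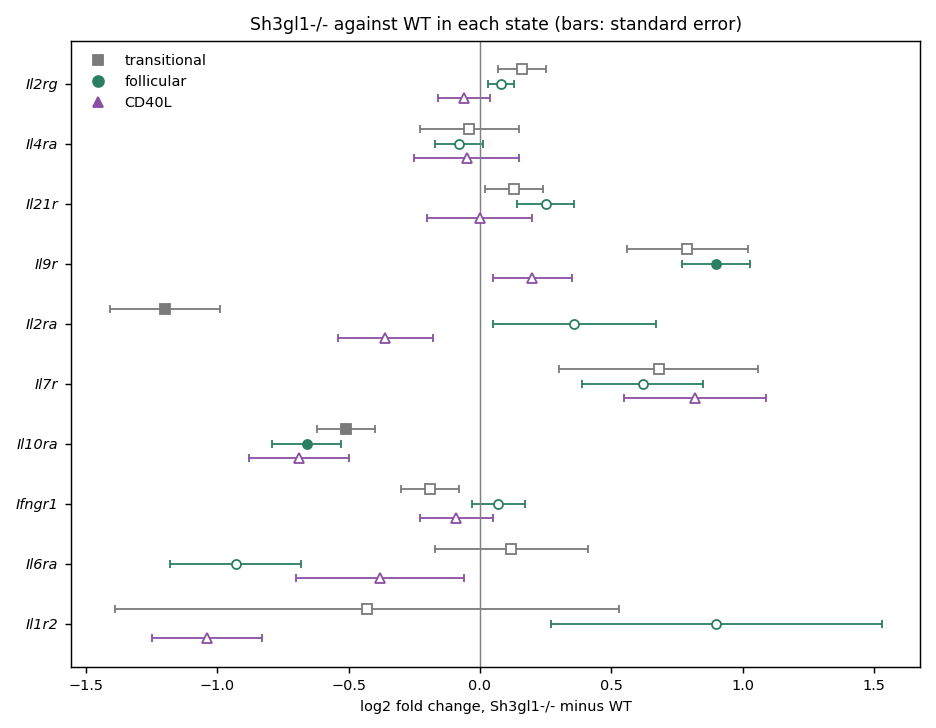
Log2 fold changes (Sh3gl1-/- minus WT) with standard errors in transitional cells (squares), follicular cells (circles) and after CD40L (triangles), filled where the adjusted p was under 0.05. Il10ra lies between -0.51 and -0.69 in all 3 states, Il9r is highest in follicular cells at 0.90 and Il2ra is at -1.20 in transitional cells.

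The rest of the pathway was read from lists of receptor chains, kinases, STAT factors, feedback inhibitors and ligands. Of 42 other receptor chains, 29 were tested in the WT response to CD40L, where 1 was higher and 12 lower, against 23.6% and 25.7% of all genes. The median log2 fold change was -0.38 against -0.08 over all genes. The single rise was Ifnlr1, the private chain for interferon lambda (5.2 ± 0.49, edgeR adjusted p = 1.4e-06). Lifr, the receptor for leukaemia inhibitory factor, had 0 counts in all WT CD40L libraries and was at least 44.7-fold lower than ex vivo, with the floor of 3 counts in each library. Csf3r (-5.49 ± 1.07) and Csf1r (-4.34 ± 0.83), receptors of neutrophils and macrophages, fell, and both genes are themselves on the marker lists of those cells. Of the 7 macrophage markers tested 4 were lower, Csf1r included, and 1 was higher. Il2rb fell (-2.52 ± 0.40, edgeR adjusted p = 1.5e-04), as did Il11ra1 (-1.89 ± 0.39, 0.0012) and Il10rb (-0.98 ± 0.13, 3.9e-05). Il2rb is also made by T and NK cells, whose markers fell in the same libraries, and its part was not tested. Ifngr2, Il6st, Il13ra1 and Il1rap were at 0.42 ± 0.20, 0.18 ± 0.29, 0.62 ± 0.77 and -0.12 ± 0.29, none past the threshold.

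The counts of the next 4 lists stand against the same 23.6% and 25.7% of all genes. Among the 4 Janus kinases, Jak1 (-0.73 ± 0.11, edgeR adjusted p = 7.8e-05) and Jak2 (-0.52 ± 0.15, 0.01) fell with CD40L in WT cells and none rose. Jak3, the partner of the common gamma chain, had 8 to 90 counts per library. It overlaps Insl3 on the same strand, which had 4 to 62, so its level is uncertain. Of 7 STAT factors, Stat6, which IL-4 activates, rose (0.71 ± 0.19, edgeR adjusted p = 0.0064), as did Stat5a (0.54 ± 0.13, 0.0031), while Stat4 (-1.10 ± 0.14, 1.7e-05) and Stat5b (-0.46 ± 0.15, 0.021) fell. Of 15 feedback inhibitors tested, 2 rose and 6 fell. Socs2 rose by 4.72 ± 0.49 (edgeR adjusted p = 3.6e-06) and Ptpn6, the phosphatase SHP-1, by 0.47 ± 0.11 (0.0033). Socs3 (-2.96 ± 1.05), Pias2 (-0.81 ± 0.23), Socs5 (-0.76 ± 0.29) and Pias4 (-0.61 ± 0.15) were among those that fell. Of 14 ligands 4 were tested, of which Il15 rose (1.89 ± 0.36, edgeR adjusted p = 5.8e-04) and Il1b fell (-3.21 ± 0.84, 0.0058). Il4, Il7, Il9 and Il21, named here after their values were seen, had 0 counts in all WT CD40L libraries, where up to 3 counts each cannot be told from 0.

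In the WT step from transitional to follicular cells, 32 other receptor chains were tested and 4 were higher and 4 lower. Of 4 Janus kinases 2 were higher, Jak1 and Jak3, and the level of Jak3 is uncertain, as given above. Among 7 STAT factors 1 was higher and 1 lower, 1 of 15 inhibitors was higher and 2 lower, and 2 of 5 ligands were lower. Over all genes 11.7% were higher and 14.2% lower, so the receptor chains were close to that share. Between genotypes few of these genes were called. In transitional cells, where 1.26% of all genes were higher and 2.48% lower, Lifr (-1.59 ± 0.28, edgeR adjusted p = 0.025) and Stat2 (-0.43 ± 0.10, 0.048) were lower and Socs2 (1.82 ± 0.31, 0.021) higher in Sh3gl1-/- cells. After CD40L, and in both tests of a difference between changes, 0 genes of the 5 lists were called, against 24 to 32 other receptor chains tested in each.

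The genes whose log2 CPM followed each receptor most closely were found among 15117 genes over the 18 libraries, which share their states and mice, so these are descriptions only. They were Abcc1 and St8sia6 for Il9r (Pearson's r 0.98 each), BC035044 and Tmed9 for Il2ra (0.97 and 0.96), Pogk and 1110004F10Rik for Il1r2 (0.96 and 0.94), Cd24a and Gm7609 for Il10ra (0.96 and 0.95), and Yju2 and Pgm1 for Il21r (0.94 and 0.90). For Il7r they were Gm18025 and Gm4610 (0.90 and 0.86), for Il4ra Axin1 and Mfng (0.86 and 0.84) and for Il2rg Taf4b and Gm43079 (0.86 and 0.83). Il6ra, with Setd4 and Cdc73, and Ifngr1, with Tmco3 and Tmed4, had the loosest likeness (0.79 for each of the 4). Annotated genes overlapping Il4ra, Il2rg, Il10ra, Il2ra, Il6ra and Il1r2 had at most 18 counts in any library.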

How the data were processed

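The 18 libraries were poly-A RNA of sorted B cells, grouped by the sample labels. The labels name a stranded KAPA kit, while the study's methods name SMART-Seq HT and Nextera XT. Per the labels' processing notes the tools were cutadapt 1.9.1, STAR 2.5.2a and RSEM 1.3.0 on GRCm38, whereas the methods name TopHat and Cufflinks. The CD40L time also differs between sources: the labels give 14 hours, the methods an overnight culture and a legend a longer time. The deposited expected counts are RSEM estimates that are not normalized for library size, and 28.5% to 31% of the non-zero values were not whole. The deposited TPM values and the deposited FPKM values were scaled by the authors for transcript length and depth. TPM was used to compare genes with each other, and FPKM was written out but not used in the text. All 54 columns of values matched a library.

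Expected counts were rounded and tested with R 4.3.3 and edgeR 4.0.16 (TMM, filterByExpr by group, glmQLFit and glmQLFTest). Comparisons of states and differences between changes used 12 libraries, and comparisons of genotypes within a state 6. P-values were adjusted by Benjamini-Hochberg over all genes tested, and a gene was called under 0.05. The SE is the size of the log2 fold change over the square root of F. CPM uses TMM-scaled totals, and the prior count of log2 CPM was 2. The p-values measure the spread between libraries of a group, or what remains of it where a block was fitted. Comparisons of states without a block treat libraries as independent, although same-numbered ones may share a mouse. Symbols came from GENCODE M21 (51633 of 51912 identifiers). Scripts were tested on simulated counts with known changes. All 18 pairs of libraries within groups differed by more than sampling noise (chi-square per degree of freedom 9.25 to 47.8).

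The text names all 10 members, the 2 genes most like each, fixed partner chains and, from each pathway list, up to 6 genes called in the WT CD40L response or between genotypes, by size of change, except for an item that is not reported here. The members and lists were chosen with earlier results of these data known. Alternatives were DESeq2 1.42.0, RLE, 2 other filters, limma 3.58.1 on log2(TPM + 1), 1 fit of 18 libraries, a replicate block, and leaving out each library.

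Replicate numbers come from the labels, and whether a number marks a mouse is not stated. Deviations from group means correlated between same-numbered libraries at 0.10 to 0.26 in both genotypes for transitional and follicular cells and at 0.14 to 0.22 for WT follicular and CD40L libraries, over 0.1 before rounding in every pair. The range was 0.03 to 0.12 for Sh3gl1-/- follicular and CD40L libraries and -0.09 to 0.10 between genotypes, which are different mice. A block within genotype was therefore added after seeing the data.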

Additional observations from a re-analysis of the deposited data

How the results depend on the processing

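The number of receptors called did not move by more than 1.5 times under any alternative for the WT step to follicular cells or for CD40L in either genotype. Without 1 library it ranged from 3 to 4, 5 to 7 and 4 to 5. In the Sh3gl1-/- step to follicular cells it was 1 with the replicate block and 1 to 2 without 1 library, in place of 2. Between genotypes in transitional cells it was 1 with limma on TPM, 1 with all 18 libraries in 1 fit, 0 with the replicate block (Il2ra -1.22 ± 0.22, adjusted p = 0.063; Il10ra -0.51 ± 0.09, adjusted p = 0.062) and 0 to 2 without 1 library, in place of 2. In follicular cells it was 0 with limma on TPM, 1 with all 18 libraries in 1 fit and 0 to 2 without 1 library, in place of 2. After CD40L it was 1 with DESeq2, 1 with all genes of at least 1 count and 1 with all 18 libraries (Il10ra, -0.72 ± 0.16, adjusted p = 0.042), in place of 0. For the difference of CD40L responses it was 1 with DESeq2 and 2 with all genes of at least 1 count, and for the difference of maturation steps 1 with DESeq2, 1 with all genes of at least 1 count and 1 with the replicate block within genotype, in place of 0. Il2rg after CD40L in WT cells turned to -0.24 with TPM, and the cause was not tested. Relative to the median of all genes it was at 0.13 with counts and -0.06 with TPM.

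The genotypes are different mice, and deviations of same-numbered WT and Sh3gl1-/- libraries correlated at -0.09 to 0.10. The highest value, for CD40L replicate 3, was over 0.1 before rounding. In every group of both genotypes replicate 1 had the highest neutrophil sum. Whether replicate numbers mark anything else that the genotypes share was not tested. With them as a block across genotypes, Il6ra was called lower after CD40L in WT cells (-0.73 ± 0.19, adjusted p = 0.0078) and Il2ra lost its call in the Sh3gl1-/- step (adjusted p = 0.052). The block changed no other call of a member than those given here and in the report.

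Counts over all genes moved more. Between genotypes edgeR called 514 in transitional cells, against 1361 with DESeq2, 1426 with all genes of at least 1 count, 182 with limma, 144 with 18 libraries, 90 with the block and 28 to 479 without 1 library. In follicular cells it called 115, against 355, 602, 64, 49, 212 and 32 to 112. After CD40L it called 3, against 79 with DESeq2, 216 with all genes of at least 1 count, 82 with 18 libraries, 21 with the block and 1 to 9 without 1 library. For the CD40L responses it called 0, against 37 with DESeq2, 210 with all genes of at least 1 count and 0 to 1 without 1 library. For the maturation steps it called 10, against 365 with DESeq2, 462 with all genes of at least 1 count, 0 with limma, 0 with 18 libraries, 20 with the block, 99 with the block within genotype and 0 to 23 without 1 library. Il1r2 ex vivo, with 2 to 43 counts, is the member whose ex vivo changes depth limits most.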

Other observations

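Across the 18 libraries some of the receptors ran together and others in opposite directions. Il9r went with Il21r (Pearson's r of log2 CPM 0.81), Il1r2 (0.80) and Il2rg (0.66), and Il2ra with Il1r2 (0.71). Il10ra ran against Il9r (-0.85), Il1r2 (-0.73) and Il21r (-0.72), and Il4ra against Il2ra (-0.66). Il4ra and Il10ra went together (0.54). Il2ra and Il9r were at 0.38, and Il6ra, Il7r and Ifngr1 reached at most 0.46 in size with any other member. These values rest on 6 groups of 3 libraries that share their states, and they are given as a description.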
